A study of Mus musculus with 6 samples.

Results

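The CCR4-NOT deadenylase and its oocyte adaptor Btg4 were followed through meiotic maturation by ribosome profiling. The genes were 10, taken by name from the 22416 genes of the deposited table: the adaptor Btg4, the 4 catalytic subunits Cnot7, Cnot8, Cnot6l and Cnot6, and the 5 scaffold subunits Cnot1, Cnot2, Cnot3, Cnot10 and Cnot11. All 10 passed the filter for testing, a mean over the libraries of 1 FPKM or more. Ribo-lite, a low-input form of ribosome profiling, sequences the short mRNA fragments shielded by ribosomes (footprints). Its values tell the share of a library's footprints on a coding sequence, not a number of ribosomes or how much protein was present. They depend both on the amount of an mRNA and on the ribosomes on each copy. There were 6 libraries of 500 pooled mouse oocytes each, 2 in each of 3 groups. WT_FGO held fully grown oocytes (germinal vesicle stage), WT_MII control oocytes that had reached metaphase II, and Treat_MII treated ones of that stage. The titles of WT_FGO and WT_MII mark them as wild type, and no title names another genotype. In the study's methods, oocytes were collected at the germinal vesicle stage from 4-week-old females, 44 h after 5 IU of PMSG. The metaphase II oocytes were then matured in culture. The mice had a C57BL/6 background. The label of the last group says only that it was treated. In the study the agent is BYBX (1 μM), a ligand that stabilizes RNA G-quadruplexes (folded stretches of G-rich RNA). The control oocytes were cultured in the solvent DMSO. The study calls its Ribo-lite replicates biological, but nothing in the labels ties the libraries to separate sets of animals, so p-values measure the spread between these libraries, which may be technical.

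CCR4-NOT shortens the poly(A) tails of mRNAs and thereby silences them and exposes them to decay. Its CNOT1 subunit is the large scaffold on which the other subunits assemble. CNOT7 and CNOT8 (the CAF1 pair) and CNOT6 and CNOT6L (the CCR4 pair) are alternative nucleases, so that a complex carries a member of each pair. BTG4 binds the CAF1 subunits and is known as the licensing factor that brings the deadenylase to maternal mRNAs when meiosis resumes. The mRNAs of several such factors are kept silent with short tails in the fully grown oocyte, and elements near the end of their 3′-UTRs, bound by CPEB1, govern when tails are extended.

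The 3′-UTR ends of the genes are shown because such elements lie there. The cytoplasmic polyadenylation element was searched as TTTTAT or TTTTAAT (T for U, mRNA strand) in the last 100 bases of the 3′-UTR of the longest coding transcript. It was found in 5 of the 10 genes, against 17.7% of 18911 annotated coding genes. The 5 were Btg4, Cnot7 and Cnot8 among the adaptor and catalytic genes, and Cnot1 and Cnot3 among the scaffold genes, so that both classes held it. In the sequences below, from GENCODE mouse release 21 transcripts on GRCm38, capitals mark the element.
Btg4, chr9:51119797-51119826, plus strand: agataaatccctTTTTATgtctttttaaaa
Cnot7, chr8:40493038-40493067, minus strand: tcttaaggtacaTTTTATatcaataaaaat
Cnot8, chr11:58118545-58118574, plus strand: tattatttatgtTTTTAATtttgtaaaata
Cnot1, chr8:95719504-95719533, minus strand: aagatgtattgaTTTTATatatgtgagtac
Cnot3, chr7:3661079-3661108, plus strand: atgaataaatagTTTTATatgacggctggc
The element ended 61 bases before the annotated transcript end in Btg4, 14 in Cnot7, 31 in Cnot8, 65 in Cnot1 and 13 in Cnot3. Over whole 3′-UTRs it was common, in 57.3% of genes and in 9 of these 10. Btg4 held it 5 times in 521 bases and Cnot7 8 times in 951 bases, whereas Cnot8 and Cnot3 held it once each and Cnot10 not at all. A match is only a run of letters, not a measured binding site. The last 100 bases are those of the chosen transcript, which can end before the annotated gene does. In Cnot7 that transcript ended at 40493036, whereas the gene reached 40492540. The gap was larger in Cnot6l, which was counted without the element near its end. Its match nearest the end, at 96075906 to 96075935, lay 181 bases before the transcript end, whereas the gene reached 96070333. The stretch beyond the chosen transcript was not searched. The matches, absences and distances near the end thus depend on the choice of transcript.

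Btg4, on chromosome 9 (51060901 to 51119875, GRCm38 as for all positions), had the highest footprint level of the 10 genes in every library. It stood at 170 and 229 FPKM in the WT_FGO libraries (replicates 1 and 2, the order kept throughout), 4772 and 4869 in WT_MII, and 5959 and 5619 in Treat_MII. Both metaphase II groups lay far above the fully grown oocytes, without overlap. Among all 22416 genes Btg4 moved from places 689 and 536 in WT_FGO to 20 and 22 in WT_MII. From WT_FGO to WT_MII its level rose by 4.604 ± 0.21 (SE) on the log2(FPKM + 1) scale (limma, adjusted p = 0.00076). In the recovered reads this was 33 against 1554 reads, a ratio of read rates of 24.0 (exact 95% interval 17.0 to 35.0, counting error only).

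The CAF1 pair rose together with the adaptor. Cnot7 (chromosome 8, 40492540 to 40515847) was at 12.4 and 87.2 FPKM in WT_FGO, 1935 and 2376 in WT_MII, and 2499 and 2372 in Treat_MII. The WT_FGO libraries rested on 1 and 8 reads and differed widely, yet both were far below every metaphase II library. In log2 units the rise to WT_MII was 5.96 ± 0.81 (SE), at an adjusted p of 0.014 in limma. It was 4.604 without WT_FGO_1 and 7.32 without WT_FGO_2. Cnot8 (chromosome 11, 58104153 to 58118594) was at 36.3 and 10.6 FPKM in WT_FGO, 311 and 346 in WT_MII, and 438 and 369 in Treat_MII. It rose by 3.98 ± 0.58 (SE), with an adjusted p of 0.017 in limma. Since only 3 and 1 reads stood behind the WT_FGO values of Cnot8, its fold is loose: the ratio of read rates was 14.6, with an exact 95% interval of 5.56 to 54.6 for counting error only.

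Neither gene of the CCR4 pair passed the test. Cnot6l (chromosome 5, 96070333 to 96164171) was at 70.1 and 11.2 FPKM in WT_FGO, 146 and 325 in WT_MII, and 352 and 392 in Treat_MII. All metaphase II libraries were above both WT_FGO libraries, but the spread within WT_FGO and WT_MII was wide, and the difference of 2.89 ± 0.86 (SE) did not pass (adjusted p = 0.11 in limma). When each value was weighted by the precision that its recovered reads give, Cnot6l was called higher, at 2.90 with an adjusted p of 0.0003 in limma. That fit used a spread shared by all genes. The spread of Cnot6l itself, with 11 and 2 reads in WT_FGO and 40 and 125 in WT_MII, did not enter it. Cnot6 (chromosome 11, 49671503 to 49712723) was hardly detected: 1 and 1 reads in WT_FGO, 0 and 0 in WT_MII, 2 and 3 in Treat_MII. All of these were at or under the floor of 3 reads. A count of 0 reads allowed up to 10.9 and 7.78 FPKM in the WT_MII libraries, above the 6.35 and 5.58 FPKM of WT_FGO, so a difference was not detectable at this depth.

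**Figure D1:**
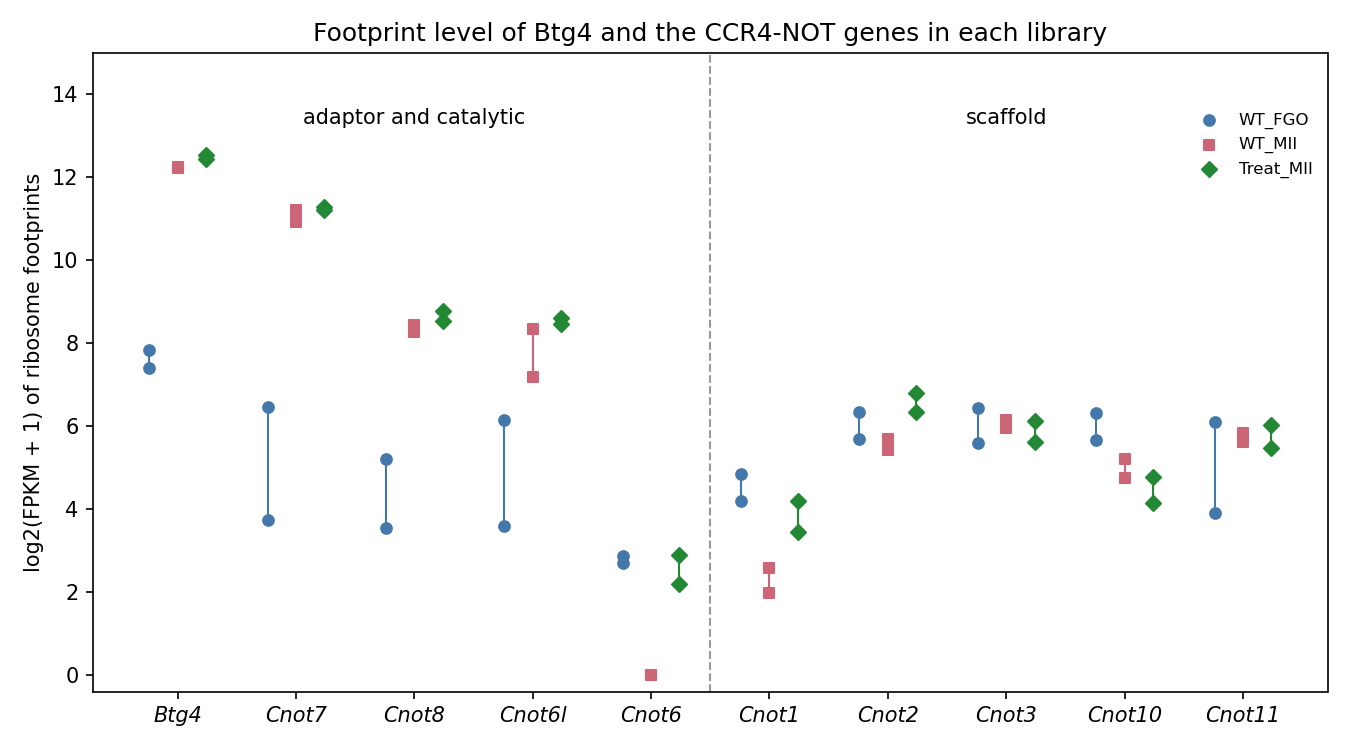
Footprint level of each gene in each library as log2(FPKM + 1), with circles for WT_FGO, squares for WT_MII and diamonds for Treat_MII (2 libraries a group, joined by a line). In Btg4, Cnot7, Cnot8 and Cnot6l both metaphase II groups lie above both WT_FGO libraries, whereas the 5 scaffold genes on the right stay between 2.95 and 110 FPKM in all libraries.

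The scaffold genes did not share the rise. Cnot1 (chromosome 8, 95719451 to 95807464), the backbone of the complex, was at 17.3 and 27.97 FPKM in WT_FGO, 4.96 and 2.95 in WT_MII, and 17.3 and 9.89 in Treat_MII. Both WT_MII libraries were below all the other libraries. Its difference between WT_MII and WT_FGO was -2.25 ± 0.75 (SE) with an adjusted p of 0.14 in limma, and it was called lower in the fit weighted by reads (-2.51, adjusted p = 0.0059), in which 4 of the 9 genes with recovered reads were called higher (5.52% of 14545 genes) and 1 lower (10.8%). The reads were 34 in WT_FGO against 11 in WT_MII, and the weighted fit again used a spread shared by all genes.

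Cnot2 and Cnot3 bind each other to form a module on the end of CNOT1. Cnot2 (chromosome 10, 116485161 to 116581511) was at 51.2 and 80.1 FPKM in WT_FGO, 42.3 and 51.1 in WT_MII, and 110 and 79.9 in Treat_MII, so that WT_MII was below WT_FGO by a small margin (difference -0.45, 95% interval -1.57 to 0.66). Cnot3 (chromosome 7, 3645268 to 3661109) was at 85.4 and 47.4, then 61.7 and 69.8, then 48.6 and 69.2 FPKM. Its groups overlapped, and the interval of the maturation difference ran from -1.15 to 1.23 on the log2 scale.

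Cnot10 and Cnot11 form the module at the other end of CNOT1. Cnot10 (chromosome 9, 114585878 to 114640184) was below both WT_FGO libraries in every metaphase II library, with 49.8 and 79.6 FPKM in WT_FGO, 36.2 and 25.9 in WT_MII, and 16.7 and 26.3 in Treat_MII. The difference was -1.02 (95% interval -2.37 to 0.34), and no reads could be recovered for this gene. Cnot11 (chromosome 1, 39534992 to 39546889) was at 14.0 and 67.7, then 56.0 and 48.6, then 43.8 and 64.7 FPKM, with overlapping groups. For these 4 genes the adjusted p in limma lay between 0.37 and 1.

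In all, 3 of the 10 genes were called higher in WT_MII (Btg4, Cnot7 and Cnot8) and 0 lower, where 3.67% of the 15129 genes tested were called higher and 3.09% lower. At an unadjusted p under 0.05 in limma there were 6 of 10, beside 3442 of the 15129 tested genes. The other 3 were Cnot6l above 0 and Cnot6 and Cnot1 below it. In 4 of the 10 genes both WT_MII libraries exceeded both of WT_FGO (15.3% of all tested genes), and in 4 both were lower (25.8%). A change past 2-fold in mean FPKM + 1, with no test applied, was seen upward in 4 genes (23.6% of all) and downward in 3 (41.8%). The median change was 3.98 over the 5 adaptor and catalytic genes, -0.45 over the 5 scaffold genes and -0.44 over all tested genes. The call of Btg4 was lost when the WT_FGO and WT_MII libraries were fitted alone (adjusted p = 0.12 in limma) or when either treated library was left out (0.10 each time). Those of Cnot7 and Cnot8 were lost in the same settings, without either WT_MII library, without the filter on low values and without the mean-variance trend, with adjusted p-values of up to 0.18 and 0.17.

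**Figure D2:**
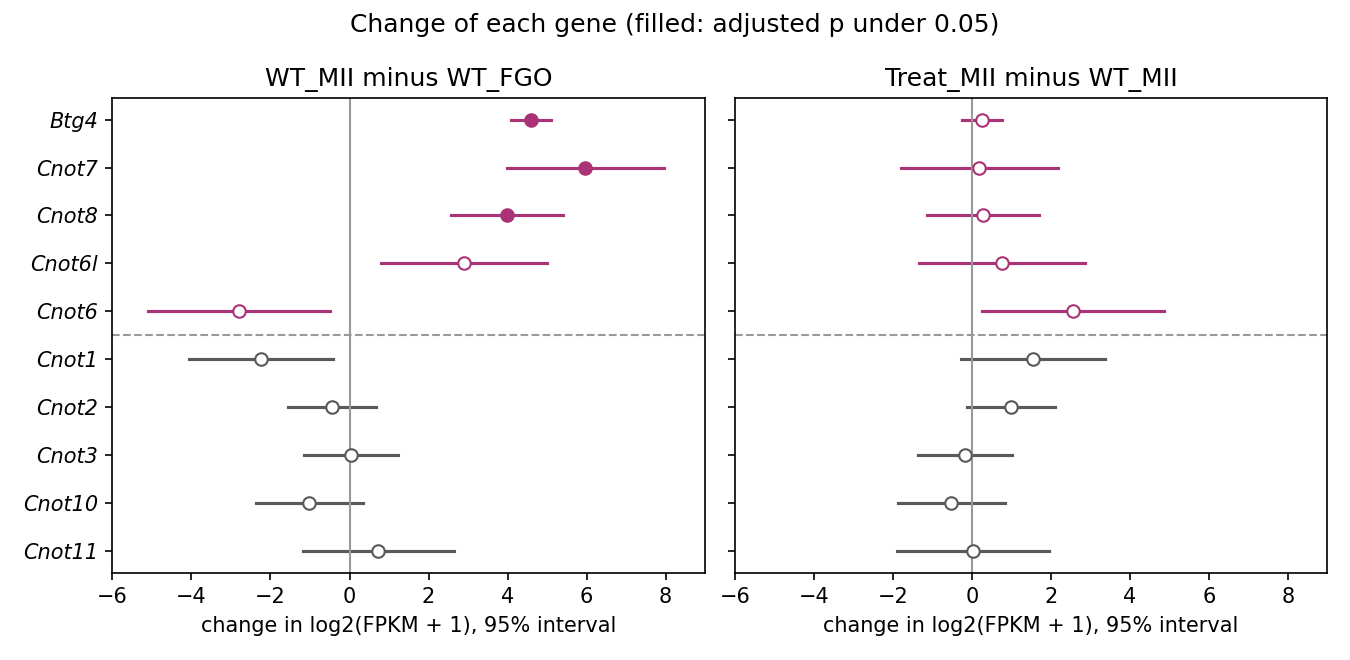
Difference in log2(FPKM + 1) of each gene for WT_MII minus WT_FGO (left) and Treat_MII minus WT_MII (right), with the 95% interval from limma, purple for adaptor and catalytic genes and grey for scaffold genes. Filled points (adjusted p under 0.05) are Btg4, Cnot7 and Cnot8 on the left, and there is none on the right.

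To set the adaptor and catalytic genes against the scaffold, every gene was expressed relative to the mean log2(FPKM + 1) of the 5 scaffold genes in the same library. This setting was chosen after the data were seen. The scaffold mean itself changed by -0.59 from WT_FGO to WT_MII, which moved the change of every gene alike. The calls below are thus no separate support for those above. Relative to the scaffold, Btg4 was higher in WT_MII by 5.19 ± 0.31 (SE, adjusted p = 0.0004 in limma), Cnot7 by 6.55 ± 0.64 (adjusted p = 0.0018) and Cnot8 by 4.57 ± 0.74 (adjusted p = 0.013). On this scale 5.08% of all tested genes were called higher and 1.59% lower. Cnot6l, at 3.48 ± 0.99, did not pass (adjusted p = 0.087), and neither did Cnot6 (-2.21, adjusted p = 0.36).

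The balance between both classes can be read in each library. The mean log2(FPKM + 1) of the adaptor and catalytic genes minus that of the scaffold genes came to -0.10 and -1.01 for WT_FGO, 2.72 and 3.21 in WT_MII, and 3.40 and 3.40 in Treat_MII. Without Cnot6, which had 1 read in each WT_FGO library, the WT_FGO values were 0.45 and -0.48, so that neither class was the higher in both. In every metaphase II library the scaffold genes were far below the others. The group means were -0.56 ± 0.64, 2.96 ± 0.35 and 3.40 ± 0.002 (SD, n = 2), a difference of 3.52 between WT_MII and WT_FGO. With Cnot6, at or under the floor, left out of the mean, that difference was 4.95. In summed FPKM, the adaptor and catalytic genes together exceeded the scaffold genes 1.35 and 1.136 times in WT_FGO, 35.6 and 39.9 times in WT_MII, and 39.1 and 35.0 times in Treat_MII. The 10 genes took 0.0638% and 0.0839% of the total FPKM of the WT_FGO libraries, 1.02% and 1.03% in WT_MII, and 1.20% and 1.137% in Treat_MII. At metaphase II most of this came from Btg4 and Cnot7.

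**Figure D3:**
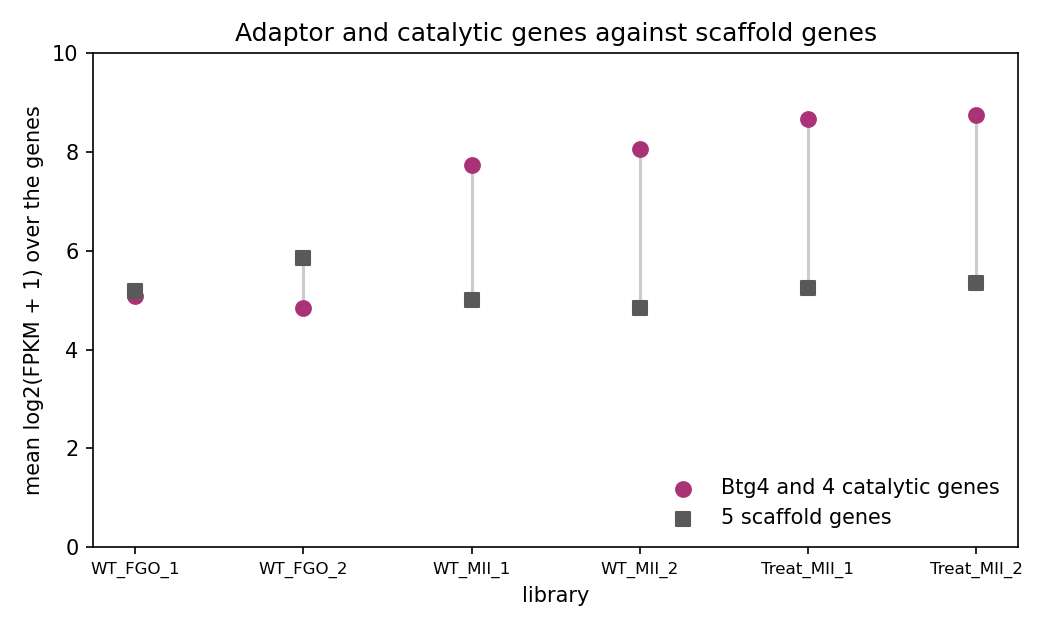
Mean log2(FPKM + 1) over Btg4 and the 4 catalytic genes (purple circles) and over the 5 scaffold genes (grey squares) in each library. The distance between them is -0.10 and -1.01 in the WT_FGO libraries and between 2.72 and 3.40 in the 4 metaphase II libraries.

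The levels of the genes could also be ordered. In WT_MII, Btg4 was above Cnot7 and Cnot7 above Cnot8 with no overlap, Cnot8 and Cnot6l overlapped (311 and 346 against 146 and 325 FPKM), and both lay above all scaffold genes. Among the scaffold genes, Cnot3 was above the next gene, Cnot11, and Cnot1 was lowest, while the ranges of Cnot11 and Cnot2 overlapped. In Treat_MII the order of the scaffold genes was another, with Cnot2 (110 and 79.9 FPKM) above Cnot3 (48.6 and 69.2) and overlapping ranges of Cnot10 and Cnot1, and Cnot8 and Cnot6l overlapped again. Cnot7 made up 86.1% and 87.3% of the summed FPKM of the CAF1 pair in WT_MII and 85.1% and 86.6% in Treat_MII. In WT_FGO the shares were 25.5% and 89.1%, from 9 and 4 reads for Cnot7 and Cnot8 over both libraries, so the fully grown state has no settled ratio. Btg4 exceeded Cnot7 2.47 and 2.05 times in WT_MII and 2.38 and 2.37 times in Treat_MII. In WT_FGO only Btg4 stood clear of the other 9 genes, whose highest value was 87.2 FPKM.

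Treatment was examined by comparing Treat_MII with WT_MII, which asks whether the ligand changed the share of footprints on these genes. None of the 10 genes was called in either direction by limma, where 0% of the 15129 tested genes were called higher and 0% lower. At an unadjusted p under 0.05 in limma there were 1 of 10 (Cnot6, at or under the floor of 3 reads) and 881 of the 15129 tested genes. The intervals still allow changes. For Btg4 the difference was 0.26 (95% interval -0.24 to 0.77), with both treated libraries above both controls. For Cnot7 it was 0.18 (-1.80 to 2.17) with overlapping groups, for Cnot8 0.29 (-1.13 to 1.71) and for Cnot6l 0.77 (-1.34 to 2.87). As a share of each library's footprints, a fall of Btg4 by more than 0.24 on the log2 scale thus lay outside its interval. Falls of over 1 log2 unit were inside those of Cnot7, Cnot8 and Cnot6l. A drop shared by all genes would not show on this scale. The study reported fewer ribosome-protected fragments in metaphase II oocytes after BYBX. By other measures it also reported less BTG4 and CNOT7 protein and repression of a reporter with the Btg4 3′-UTR.

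Of the scaffold genes, Cnot1 stood higher in both treated libraries than in both controls (62 against 11 reads), a difference of 1.54 with an interval of -0.28 to 3.36 and an adjusted p of 0.93 in limma. Cnot2 was also above in both, by 0.997 (-0.12 to 2.11, adjusted p = 0.92). Cnot3, Cnot10 and Cnot11 overlapped, with differences of -0.17, -0.52 and 0.03. Both treated libraries lay above both controls in 6 of the 10 genes (16.2% of all tested genes) and below both in 0 (15.6%). Past 2-fold in mean FPKM + 1 there were 3 upward (19.9% of all) and 0 downward (21.2%). The median difference was 0.29 over the adaptor and catalytic genes, 0.03 over the scaffold genes and 0 over all tested genes. The balance between both classes differed by 0.44 from WT_MII to Treat_MII, and by 0.0024 with Cnot6 left out. Relative to the scaffold mean, Btg4, Cnot7 and Cnot8 differed by -0.11, -0.19 and -0.08, and none passed. In the fit weighted by reads, which called 0.447% of 14545 genes higher and 0.688% lower, none of the 9 genes with recovered reads passed either (adjusted p of Btg4 0.24).

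Treated and fully grown oocytes were also compared, a contrast that shares its libraries with the others. Again Btg4, Cnot7 and Cnot8 were called higher, 3 of 10 genes, and 0 lower, where 2.86% of all tested genes were called higher and 0.998% lower. The rises in log2 units were 4.87 ± 0.21, 6.15 ± 0.81 and 4.27 ± 0.58 (SE), at adjusted p-values of 0.00068, 0.016 and 0.018 in limma. Cnot6l, at 3.66 ± 0.86, did not pass (adjusted p = 0.084), and its change was 4.93 without WT_FGO_1. It was called in the fit weighted by reads, with its shared spread (3.59, adjusted p = 1.26e-06 in limma). Cnot10 did not pass and was below WT_FGO in both treated libraries (-1.54, adjusted p = 0.20). Both treated libraries exceeded both WT_FGO libraries in 4 of the 10 genes (16.6% of all tested genes) and were lower in 2 (28.9%), and past 2-fold there were 4 upward (21.2%) and 1 downward (45.5%). Only the call of Btg4 remained without either WT_MII or either treated library, at adjusted p-values of up to 0.046.

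Other genes linked to the shortening or extension of tails, some by relation only, were taken as lists. They were chosen with earlier results of these data known. Of 7 tested genes listed as deadenylases outside the complex, 2 were called higher in WT_MII and 0 lower. Over all tested genes 3.67% were called higher and 3.09% lower. The median change was 3.46 in the list and -0.44 over all tested genes. Pan2, the nuclease of the PAN2-PAN3 deadenylase, which trims long tails, was at 23.6 and 28.5 FPKM in WT_FGO, 323 and 268 in WT_MII, and 219 and 248 in Treat_MII. It rose by 3.46 ± 0.35 (SE) to WT_MII, with an adjusted p of 0.0056 in limma. Angel2 was listed as a relative of the CCR4 nucleases, and its activity on tails was not tested here. It was at 0 and 11.2 FPKM in WT_FGO, 270 and 237 in WT_MII, and 243 and 183 in Treat_MII. It rose by 6.18 ± 1.12 (SE, adjusted p = 0.032 in limma), from 2 reads to 165, a ratio of read rates of 42.0 with an exact 95% interval of 11.4 to 350 for counting error only. The call of Angel2 was lost in 8 of 15 alternative settings (adjusted p-values of up to 0.21), and its change was 4.38 without WT_FGO_1 and 7.99 without WT_FGO_2. That of Pan2 was lost in 4 (up to 0.12). In the treatment comparison none of these 7 genes was called.

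Of the 5 other tested members of the BTG/TOB family, to which Btg4 belongs, 0 were called higher in WT_MII and 1 lower. The shares of all tested genes were 3.67% and 3.09%. Tob2, the member with the highest mean level, was at 82.0 and 54.1 FPKM in WT_FGO, 11.7 and 8.37 in WT_MII, and 32.1 and 49.1 in Treat_MII. It fell by 2.63 ± 0.56 (SE) to WT_MII, with an adjusted p of 0.049 in limma, and only 1 of 15 alternative settings kept that call (adjusted p-values from 0.031 to 0.16). Tob2 lay above the WT_MII libraries in both treated libraries, with an adjusted p of 0.77 for the treatment difference in limma. The 3 remaining CCR4-NOT subunits tested (Cnot4, Cnot9 and Tnks1bp1) gave no call in this fit. Tnks1bp1, the one with the highest mean level, was at 18.0 and 5.29 FPKM in WT_FGO and 68.7 and 42.6 in WT_MII (2.33 ± 0.69, adjusted p = 0.11 in limma). It passed only without WT_FGO_1 (adjusted p = 0.042), of 14 alternative settings.

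Of 15 tested RNA-binding proteins that recruit the complex to mRNAs, none was called in either comparison with all 6 libraries. The median maturation change was 0.79, against -0.44 over all tested genes. Nanos2, a germ-cell recruiter that binds CNOT1, had the highest mean level of the list, with 52.0 and 0 FPKM in WT_FGO and 134 and 117 in WT_MII (4.11 ± 1.70, adjusted p = 0.22 in limma). Its change was 6.98 without WT_FGO_1, where it was called (adjusted p = 0.0028), and 1.25 without WT_FGO_2. Of 11 tested tail polymerases, which add nucleotides to mRNA ends, 1 was called higher in WT_MII than in WT_FGO and 2 lower. Over all tested genes the shares were 3.67% higher and 3.09% lower. Tent4a rose by 2.37 ± 0.48 (SE, adjusted p = 0.044 in limma), from 49.5 and 27.7 FPKM to 152 and 252. Tent5b fell by 2.74 ± 0.53 (adjusted p = 0.038) and Tent5c by 3.60 ± 0.64 (adjusted p = 0.030), the latter from 235 and 278 FPKM to 36.2 and 11.1. In Treat_MII, Tent5b was at 14.1 and 22.7 FPKM and Tent5c at 18.0 and 18.6, near their WT_MII levels. These 3 calls were lost in 11, 10 and 7 of 15 alternative settings.

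**Figure D4:**
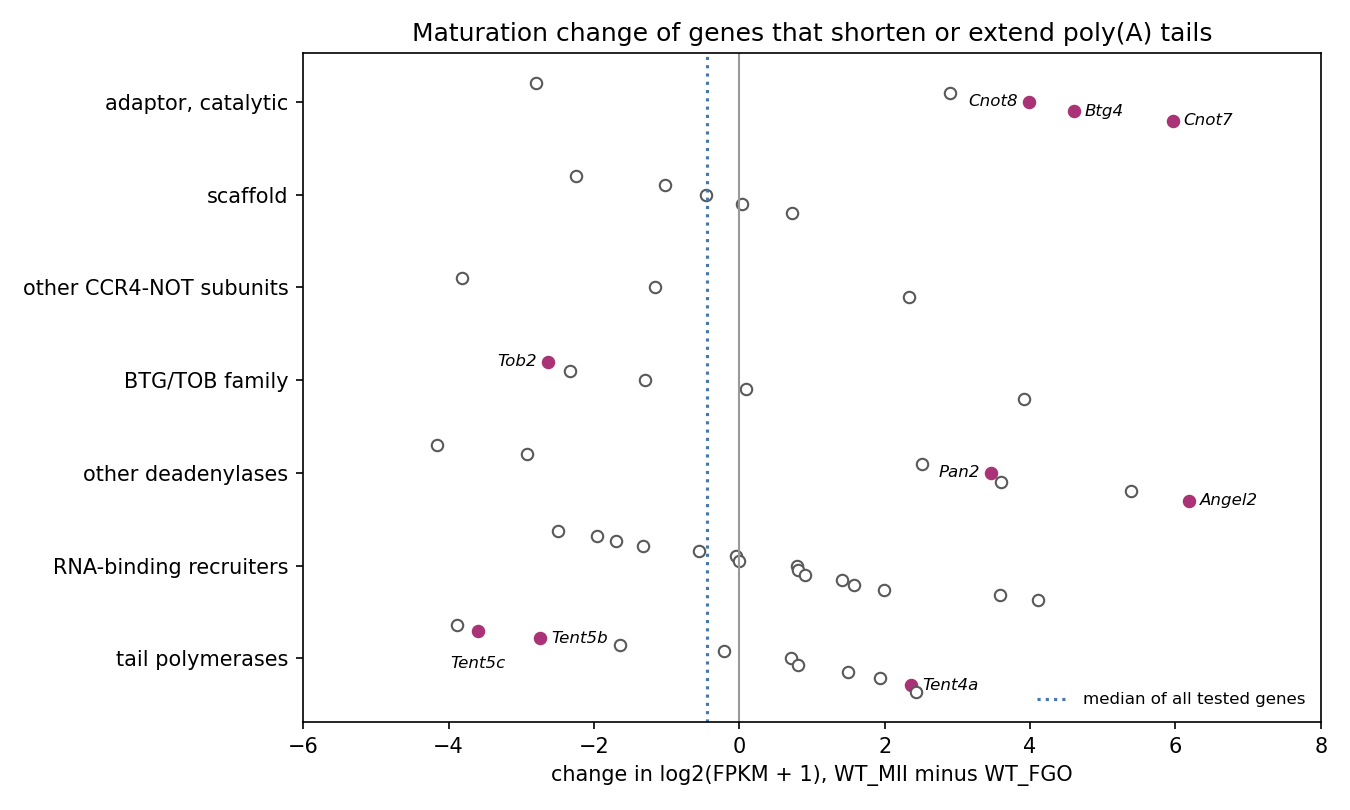
Maturation change (WT_MII minus WT_FGO, log2(FPKM + 1)) of each tested gene, a point per gene, for the adaptor and catalytic genes, the scaffold genes and 5 related lists. Filled, named points passed an adjusted p under 0.05, and the dotted line is the median of all 15129 tested genes, -0.44.

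The genes whose pattern was most like that of Btg4, by Pearson's r of log2(FPKM + 1) over the 6 libraries among the 2113 others whose mean reached 50 FPKM, were Ccdc69, E330021D16Rik, Cdc20, Ctbp2 and Tmem209, each with r above 0.999. Cdc20, an activator of the anaphase-promoting complex, was at 7.08 and 12.5 FPKM in WT_FGO, 340 and 344 in WT_MII, and 425 and 448 in Treat_MII. Of the complex itself, Cnot7 (0.977), Cnot8 (0.955) and Cnot6l (0.856) were the closest to Btg4. For Cnot1 the most alike were Cops6 (0.980), Rfc3 (0.979), Micos13 (0.97498), Sem1 (0.974) and Kcnv2 (0.964). Like Cnot1, Cops6, a subunit of the COP9 signalosome, was lowest in WT_MII, at 17.8 and 4.23 FPKM against 176 and 246 in WT_FGO and 85.6 and 49.7 in Treat_MII. Each r describes 6 points that share their libraries and depth.

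Depth and purity bear on all these values. The libraries held 94309 to 331304 recovered reads, fewest in WT_FGO and most in Treat_MII, with a median of 13 reads per tested gene over all 6. The 15 oocyte markers were all tested and summed to between 39904 and 58249 FPKM in WT_FGO, 21740 and 25819 in WT_MII, and 32786 and 33573 in Treat_MII. Of these markers 9 were called lower in WT_MII (3.09% of all tested genes) and 3 higher (3.67%). Their median change was -2.53, against -0.44 over all tested genes. Oosp1, a protein that oocytes secrete, alone gave 11263 and 15029 FPKM of the WT_MII sums, against 122 and 185 in WT_FGO. In pooled libraries fewer cells of a type, less mRNA per cell and fewer ribosomes per mRNA cannot be told apart. A share of a library's footprints also falls when other genes gain. Each library was of 500 oocytes. The 19 granulosa and cumulus markers summed to 972 and 2676 FPKM in WT_FGO, 2106 and 410 in WT_MII, and 322 and 346 in Treat_MII. The receptors Fshr and Lhcgr were at 0 in all 4 metaphase II libraries and in WT_FGO_1, and at 3 reads each in WT_FGO_2. Cyp19a1 was at 35.13 and 24.72 FPKM in WT_FGO, 32.14 and 54.53 in WT_MII, and 52.01 and 57.71 in Treat_MII. Amh was at 57.42 and 196.4 FPKM in WT_FGO, 40.12 and 49.51 in WT_MII, and 19.98 and 48.03 in Treat_MII. Inha was at 28.97 and 747.3 FPKM in WT_FGO, 11.04 and 7.888 in WT_MII, and 0 and 3.305 in Treat_MII. In WT_FGO, Inhba was at 0 and 139.3 FPKM, Fst at 10.14 and 142.6, and Cyp11a1 at 0 and 66.28. Hsd17b1, Cyp19a1 and Cd44 were instead higher in WT_FGO_1 than in WT_FGO_2. Nr5a2 was at 0 in both WT_FGO libraries and above 0 in all 4 metaphase II libraries. Of the 16 tested markers, 6 had a maturation change above 0 and 10 below it. Whether such cells were present was not tested. Gja1 was the 1 marker of this list called, lower in WT_MII. Its level was 92.53 and 740.4 FPKM in WT_FGO, 0 and 3.779 in WT_MII, and 13.17 and 3.166 in Treat_MII. Between the WT_MII libraries, which differed most in these markers through Hsd17b1 (1956 and 256 FPKM), Btg4 was at 4772 and 4869 FPKM. In WT_FGO, Btg4, Cnot7 and 4 of the 5 scaffold genes (Cnot1, Cnot2, Cnot10 and Cnot11) were higher in the library with the larger marker sum, and Cnot8, Cnot6l, Cnot6 and Cnot3 lower, and the part of the markers in this was not tested.

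The reads of near-identical copies can also enter. Of all coding words of 28 bases (the length of a footprint), 39.7% in Cnot8, 35.6% in Cnot3 and 13.2% in Cnot1 also occurred in transcripts of other genes, chiefly the processed pseudogenes Gm18860, Gm9207 and Gm6158, so the levels of these 3 genes are uncertain to that extent. The other 7 genes shared no such word. The coding sequences of Cnot7 and Cnot8 were 70.8% identical, and those of Cnot6 and Cnot6l 73.3%, with no identical run longer than 20 bases in either pair, which is shorter than a footprint.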

How the data were processed

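Ribosome footprints were measured by Ribo-lite in 6 mouse oocyte libraries. The authors deposited FPKM (fragments scaled to coding sequence length and to library depth) for each library. The submitters' processing notes name cutadapt 1.14, Bowtie2 2.2.2, STAR 2.5.3a and mm10, but the counting program, annotation release, use of molecular identifiers and any spike-in are not given in the sources used here, so values are relative to each library's total. The table held 22442 rows, and of rows with a repeated gene name the one with the highest mean was kept (26 left out).

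With the union coding lengths of GENCODE mouse release 21, the FPKM of 98.4% of 21937 matched genes were whole reads in every library (tolerance 0.02 reads), which gave the depth. The 15129 genes whose mean reached 1 FPKM were tested on log2(FPKM + 1) with limma 3.58.1 in R 4.3.3 (lmFit and eBayes with a trend), with all 6 libraries in a single fit of 3 groups. P-values were adjusted by Benjamini-Hochberg over all genes and called under 0.05. Differences on this scale understate the changes of low genes. Ratios of read rates carry exact (Clopper-Pearson) 95% intervals, which, like the floor of 3 reads, cover counting error only, since PCR copies are not independent molecules. An exact permutation test of 2 libraries against 2 cannot reach 0.05 and was not used.

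Same-numbered libraries of different groups were not taken as pairs: after removal of the group means they correlated at 0.0342, 0.0176 and 0.0189 over 2706 genes. The named genes were the 10 members, genes of the related lists that were called or had the highest mean of their list, and the 5 genes most correlated with Btg4 and with Cnot1. Members and lists were chosen with earlier results of these data known. Alternatives were a pseudocount of 0.1, no filter, a minimum mean of 5 FPKM, quantile normalization, libraries centred at their median log2 ratio, the replicate number as a block, the compared groups alone, no trend, weights from recovered reads (voom), a 2-fold rule without a test, and leaving out each library. In the fit weighted by reads the spread was shared by all genes, so its p-values do not measure the spread of the single gene. RNA-seq of the study was not used here, so no translational efficiency was computed. G-rich motifs are not reported here.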

Additional observations from a re-analysis of the deposited data

How the results depend on the processing

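Of the 10 genes, 3 were called higher in WT_MII than in WT_FGO with a pseudocount of 0.1, a mean of at least 5 FPKM, centring, quantile normalization and the replicate block. There were 1 without the filter on low values, 0 with the compared groups alone, 1 without the trend, and 0 to 3 on leaving out each library (0 without Treat_MII_1 or Treat_MII_2, 1 without WT_MII_1 or WT_MII_2). The number called lower was 1 with weights from reads and 3 by the 2-fold rule. For Treat_MII against WT_FGO the number higher was 1 without the filter, 0 with the compared groups alone, 0 without the trend and 1 to 4 on leaving out each library, and the 2-fold rule counted 1 lower. For treatment the 2-fold rule counted 3 higher. The replicate block changed no call of the 10 genes (3 higher, 0 lower in maturation, Btg4 at an adjusted p of 0.00086 in limma), but Tob2 and Tent4a were lost with it (0.085 and 0.067). The cause of these changes was not tested.

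The adaptor and catalytic genes minus the scaffold genes gave 2.98 in maturation and 1.01 in treatment with a pseudocount of 0.1, and 4.95 and 0.0024 with Cnot6 left out, a setting added after the data were seen. This value could not be formed with a mean of at least 5 FPKM, which removes Cnot6, or with weights, which need the reads of Cnot10. Centring raised the maturation change of Btg4 by 0.53 and its treatment change by 0.09. It turned the maturation change of Cnot2 to 0.073, and the changes of Cnot6 and Cnot3 from WT_FGO to Treat_MII to 0.28 and 0.48. Quantile normalization turned the last 2 to 0.53 and 0.25. On leaving out each library, the maturation change ran from -0.38 to 0.46 in Cnot3 and from -0.37 to 1.83 in Cnot11, the treatment change from -0.42 to 0.076 in Cnot3 and from -0.25 to 0.30 in Cnot11, and the change from WT_FGO to Treat_MII from -0.55 to 0.29 in Cnot3, -0.34 to 1.86 in Cnot11 and -0.59 to 0.11 in Cnot6. None of these values was called in any setting. With at most 22 reads per library for the scaffold genes with recovered reads in WT_FGO, changes under about the width of the intervals printed above were not detectable.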
